A study of Mus musculus with 8 samples.

Results

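The genes described here carry the beta-adrenergic signal through cyclic AMP (cAMP) to protein kinase A (PKA): Adrb1, Adcy5, Adcy6, Pde3a, Pde4b, Pde4d, Prkaca, Prkar1a and Prkar2a. Their expression was measured in whole hearts taken at E18.5, close to birth, from wild-type (WT) mouse embryos and from embryos lacking SIRT1 in every cell through a germ-line deletion (SIRT1 KO), all on the C57BL/6 background. SIRT1 is a protein deacetylase that depends on NAD+. RNA of 1 heart was labelled with the dye Cy3 and hybridised to 1 Agilent array, with 4 hearts of each genotype and 8 arrays in all. The members were all the array probes whose transcript accession belongs to one of the 9 genes, whatever their values, which gave 19 of the 41174 probes on the array and 9 of the 19096 genes named. Each value given below is a level on the log2 scale, the log2 of the array's processed spot intensity minus the 75th percentile of that array, so a value of 0 is the brightness that 75 percent of spots stay under. Probes differ in how well they bind, so the level of a probe was not set against that of another probe.

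In the heart, noradrenaline and adrenaline bind beta-adrenergic receptors, which act through a stimulatory G protein on adenylyl cyclases that make cAMP. Phosphodiesterases (PDEs) break cAMP down, and cAMP that escapes them binds the regulatory subunits of PKA and frees its catalytic subunits. These phosphorylate calcium channels, phospholamban and sarcomere proteins, which speeds and strengthens the heartbeat, and the transcription factor CREB, which binds the cAMP response element (CRE) of its target promoters.

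A probe entered the test if no fewer than 4 of the 8 arrays measured it well above background, and 25616 probes did. Of the 19 member probes, 18 were tested. The other, A_51_P109060 of Pde3a, stayed near background in all hearts. The 75th percentile of intensity ran from 939 to 1033 in the WT arrays and from 777 to 906 in the SIRT1 KO arrays, and the lowest was that of SIRT1 KO replicate 3. All WT arrays shared 1 slide and 1 scan, and all SIRT1 KO arrays another slide and scan, so slide and genotype cannot be told apart in any comparison below. The probes for the deleted gene did not separate the genotypes as a loss of transcript would. Sirt1 probe A_52_P358612 read -0.14, 0.32, 0.00074 and 0.0018 in the WT hearts and 0.64, 0.50, 0.43 and 0.75 in the SIRT1 KO hearts, which is higher in all 4 hearts labelled SIRT1 KO (log2 fold change 0.54, SE 0.11, limma adjusted p = 0.0323, a call lost under 11 of 17 alternatives). Sirt1 probe A_51_P141152 gave a log2 fold change of -0.11 (limma adjusted p = 0.589), or -0.21 to -0.043 with each heart left out. Whether either probe lies in the deleted exons was not given in the sources used here, so each group is named by its label and the direction of every difference rests on that label. All 10 cardiomyocyte markers were tested, and 8 were higher and 2 lower in SIRT1 KO hearts. An unadjusted limma p under 0.05 was reached by 3 (30%, all higher), against 20.4% of all named genes tested. No marker was called, against 4.58% of those genes. The summed linear level of the markers (in units of the array's 75th percentile) was 1249 to 1372 in WT and 1346 to 1524 in SIRT1 KO hearts. These markers include Myh6, Tnnt2 and Pln.

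None of the 18 member probes differed between SIRT1 KO and WT hearts after Benjamini-Hochberg adjustment over all 25616 probes, at an adjusted p under 0.05. Over all probes tested, limma called 1250, or 4.88%. An unadjusted limma p under 0.05 was reached by 3 member probes (16.7%), against 21.5% of all probes tested, and a plain analysis of variance per probe, the methods' test, gave the same counts of 0 and 3. The 3 probes were the brighter Adrb1 probe and 2 probes of Prkar2a, all lower in SIRT1 KO hearts. By sign alone, 8 member probes were higher and 10 lower, with a median log2 fold change of -0.048 against 0.0081 for all probes. The 4 values of one genotype lay wholly beyond the 4 of the other for 3 member probes, which were 1 higher (Prkaca) and 2 lower (Adrb1 and Prkar2a). Among the 25535 tested probes with a value on every array, 8.64% were wholly beyond in the higher direction and 5.09% in the lower. With 4 hearts against 4, a probe with no overlap reaches an exact two-sided permutation p of 0.0286, which is the smallest this design can give.

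**Figure D1:**
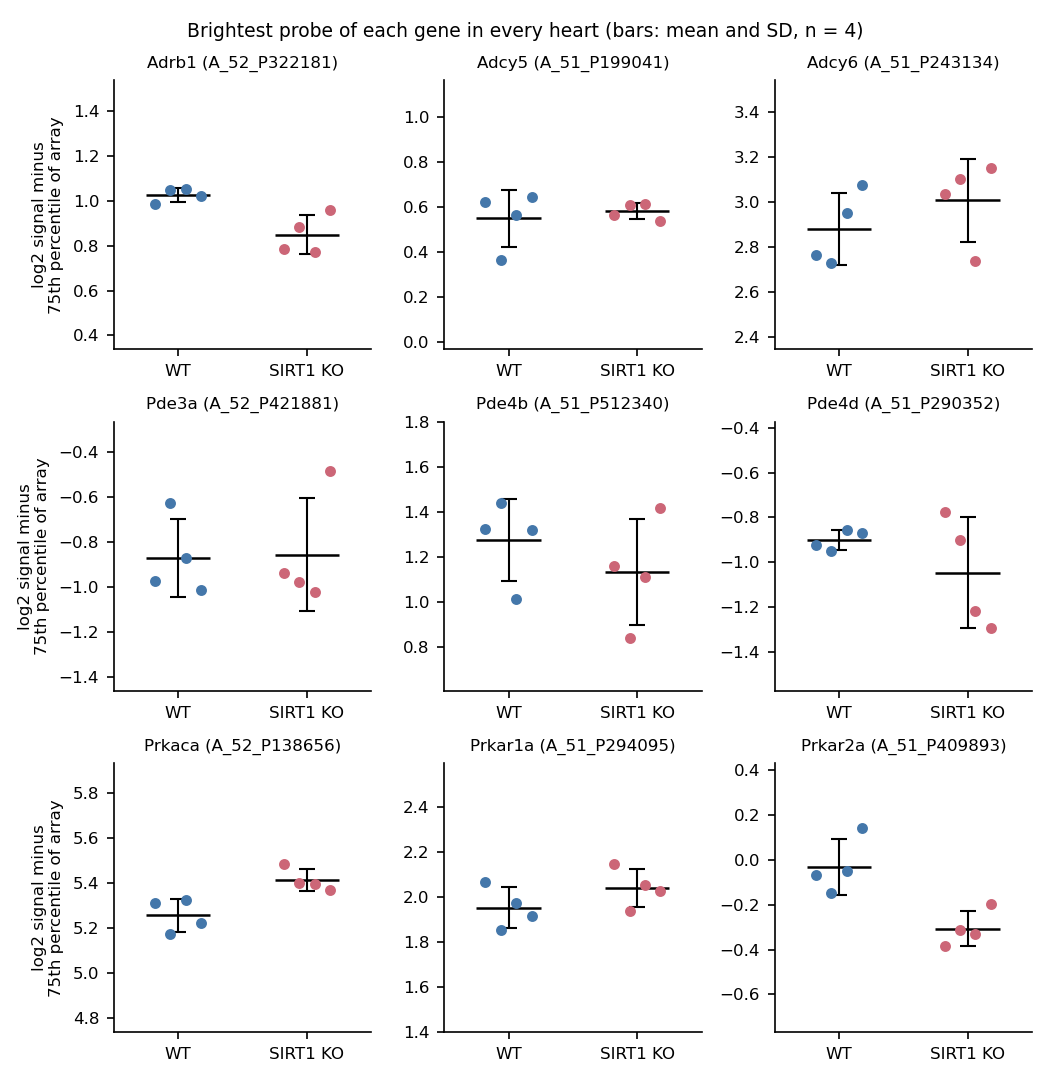
Level of the brightest probe of each of the 9 genes in every heart, as log2 signal minus the 75th percentile of the array, for 4 WT (blue) and 4 SIRT1 KO (red) hearts. Each point is a heart, and bars give the mean and SD; every panel spans the same log2 range. The genotypes are apart for Adrb1 (lower in SIRT1 KO), Prkar2a (lower) and Prkaca (higher), and overlap for the other 6 genes.

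Adrb1 encodes the beta1-adrenergic receptor, the main beta receptor of cardiomyocytes. Its brighter probe, A_52_P322181, read 0.98, 1.05, 1.05 and 1.02 in the WT hearts and 0.78, 0.88, 0.77 and 0.96 in the SIRT1 KO hearts. All 4 SIRT1 KO hearts were below the lowest WT heart, and the nearest pair, WT replicate 1 and SIRT1 KO replicate 4, was close. The log2 fold change was -0.18 (SE 0.07, 95% interval -0.34 to -0.017), or 0.885-fold, with a limma adjusted p of 0.192 and an exact permutation p of 0.0286. The dimmer probe, A_51_P203827, read -3.58, -4.17, -3.72 and -3.83 in WT and -3.85, -3.73, -3.62 and -3.66 in SIRT1 KO hearts. On it the genotypes overlapped, with a log2 fold change of 0.11 (limma adjusted p = 0.657). Over the 8 hearts the 2 Adrb1 probes did not follow each other (Pearson r = -0.30, permutation p = 0.497, adjusted p = 0.746; Spearman rho = -0.24, permutation p = 0.582, adjusted p = 0.892; r = -0.44 without the 2 hearts farthest from the median), so the lower reading of the brighter probe was not repeated on the second.

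Adcy5 and Adcy6 encode the 2 adenylyl cyclases best known in cardiomyocytes, both of which calcium inhibits. Adcy5 probe A_51_P199041 read 0.62, 0.37, 0.57 and 0.65 in WT and 0.56, 0.61, 0.61 and 0.54 in SIRT1 KO hearts, with a log2 fold change of 0.03 (95% interval -0.15 to 0.21, limma adjusted p = 0.856). WT replicate 2 was the lowest heart and the other 7 lay close together. The second Adcy5 probe, A_52_P449208, gave -0.020 (limma adjusted p = 0.916). Adcy6 probe A_51_P243134 read 2.77, 2.73, 2.95 and 3.07 in WT and 3.03, 3.10, 2.74 and 3.15 in SIRT1 KO hearts. The genotypes overlapped, with SIRT1 KO replicate 3 among the lowest WT hearts, and the log2 fold change was 0.13 (95% interval -0.14 to 0.39, limma adjusted p = 0.565), or 0.22 when SIRT1 KO replicate 3 was left out and 0.076 when WT replicate 2 was. These intervals leave room for an increase of up to 1.16-fold in Adcy5 and 1.31-fold in Adcy6, and for levels as low as 0.901-fold and 0.909-fold of WT. The difference between the cyclases within a heart (Adcy5 over Adcy6) was -0.095 on the log2 scale between genotypes (SE 0.12, exact permutation p = 0.429), and was -0.20 when SIRT1 KO replicate 3 was left out and -0.033 when replicate 4 was.

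The 3 phosphodiesterase genes encode the cAMP-degrading enzymes PDE3A, which cGMP inhibits and which acts near the sarcoplasmic reticulum, and PDE4B and PDE4D, which are specific for cAMP and are made from several promoters as long and short forms. Pde3a probe A_52_P421881 read -0.97, -0.63, -0.87 and -1.01 in WT and -0.94, -0.98, -1.02 and -0.49 in SIRT1 KO hearts. Of the 8, SIRT1 KO replicate 4 was the highest, replicates 1 and 2 lay within the WT range and replicate 3 just below it, and the log2 fold change was 0.014 (95% interval -0.30 to 0.33, limma adjusted p = 0.964). Without SIRT1 KO replicate 4 it was -0.11.

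Pde4b had 3 probes, and none separated the genotypes. The brightest, A_51_P512340, read 1.33, 1.44, 1.01 and 1.32 in WT and 1.16, 0.84, 1.11 and 1.42 in SIRT1 KO hearts (log2 fold change -0.14, 95% interval -0.45 to 0.16, limma adjusted p = 0.577). The second, A_52_P423247, read -0.61, -0.54, -0.84 and -0.57 in WT and -0.69, -1.05, -0.71 and -0.43 in SIRT1 KO hearts (-0.077, limma adjusted p = 0.776). The hearts fell in nearly the same order on both probes: SIRT1 KO replicate 2 was lowest on each, WT replicate 3 next, and WT replicate 2 and SIRT1 KO replicate 4 were the highest pair. Pearson's r over the 8 hearts was 0.966 (permutation p = 0.00015, adjusted p = 0.0013 over the 9 probe pairs), Spearman's rho was 0.952 (permutation p = 0.0011, adjusted p = 0.0103), and r was 0.894 without the 2 hearts farthest from the median. Deviations from the genotype means gave 0.977. Pde4b thus varied from heart to heart within each genotype, over 0.43 log2 units in WT and 0.58 in SIRT1 KO hearts on the brightest probe, more than the means of the genotypes differed. The difference of the brightest probe was -0.24 when SIRT1 KO replicate 4 was left out and -0.046 when replicate 2 was. The third probe, A_52_P149801, was dim in all hearts, from -5.14 to -4.77, and did not follow the brightest (r = -0.09, permutation p = 0.836, adjusted p = 0.836; rho = -0.24, permutation p = 0.582, adjusted p = 0.892; r = -0.077 without the 2 farthest hearts). Its log2 fold change was 0.11 (limma adjusted p = 0.463), or 0.067 to 0.14 with each heart left out.

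Pde4d had 4 probes. The brightest, A_51_P290352, read -0.92, -0.95, -0.85 and -0.87 in WT and -0.77, -0.90, -1.22 and -1.29 in SIRT1 KO hearts. The WT hearts spanned 0.093 log2 units and the SIRT1 KO hearts 0.52, with replicate 1 above all WT hearts and replicates 3 and 4 below them all, and the log2 fold change was -0.15 (95% interval -0.42 to 0.12, limma adjusted p = 0.507), or -0.24 when SIRT1 KO replicate 1 was left out and -0.066 when replicate 4 was. The second probe, A_51_P120990, read -2.49, -2.23, -2.63 and -2.47 in WT and -2.50, -2.87, -3.07 and -2.58 in SIRT1 KO hearts (log2 fold change -0.30, 95% interval -0.62 to 0.02, limma adjusted p = 0.262). The difference was -0.19 when SIRT1 KO replicate 3 was left out and -0.11 with normexp on the median signal. Here SIRT1 KO replicates 2 and 3 were below all WT hearts and the other two lay among them. The dimmer probes A_52_P582018 and A_52_P589745 gave 0.03 (limma adjusted p = 0.925) and -0.22 (limma adjusted p = 0.332), and the latter was not well above background in SIRT1 KO replicate 3. Set against the brightest Pde4d probe, none of the 3 others had an adjusted correlation p under 0.05. Within hearts, neither Pde3a over Pde4d (difference 0.16, SE 0.24, exact permutation p = 0.686) nor Pde4b over Pde4d (0.0042, SE 0.24, exact permutation p = 0.943) was shown to differ between genotypes. With a heart left out these ran from -0.044 (without SIRT1 KO replicate 4) to 0.28 and from -0.17 (without the same heart) to 0.15, so neither has a settled sign.

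**Figure D2:**
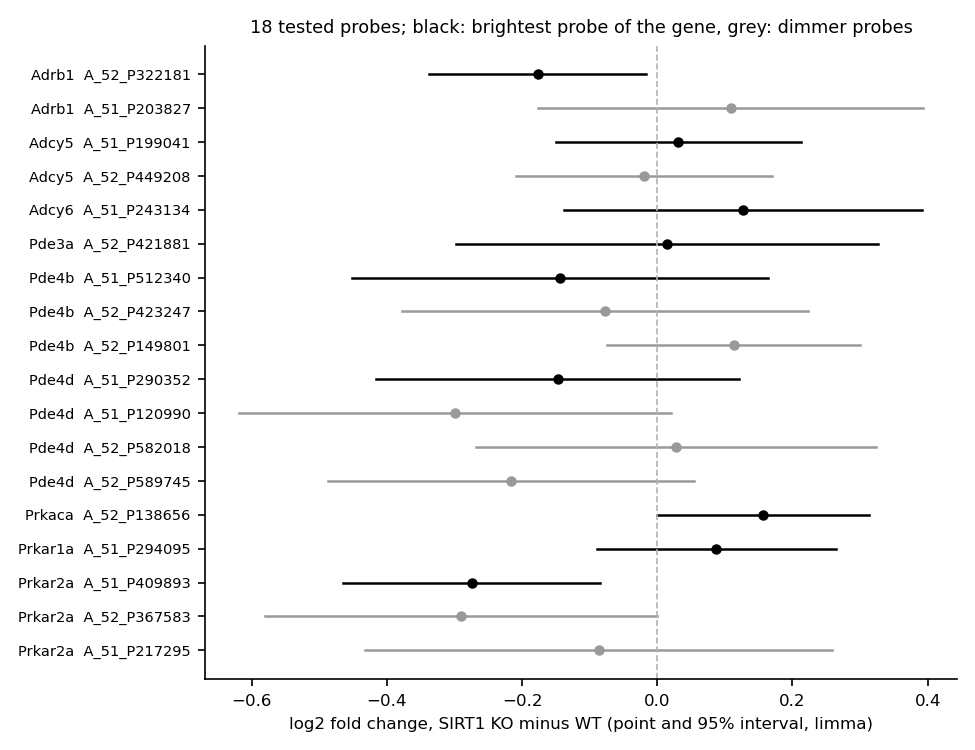
Log2 fold change, SIRT1 KO minus WT, of the 18 tested probes of the 9 genes, with the 95% interval from limma (n = 4 per genotype). Black marks the brightest probe of each gene and grey the dimmer ones. The intervals of 3 probes lie below 0, those of the brighter Adrb1 probe and of A_51_P409893 and A_52_P367583 of Prkar2a, the last ending close to 0. The interval of Prkaca starts close to 0 from the other side.

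PKA is held inactive as 2 regulatory and 2 catalytic subunits. Prkaca encodes the main catalytic subunit, C-alpha, of the heart. Its probe, A_52_P138656, read 5.31, 5.17, 5.32 and 5.22 in WT and 5.48, 5.40, 5.40 and 5.37 in SIRT1 KO hearts. All 4 SIRT1 KO hearts were above the highest WT heart, by a narrow margin. The log2 fold change was 0.16 (SE 0.07, 95% interval -0.00037 to 0.31), or 1.11-fold, with a limma adjusted p of 0.234 and an exact permutation p of 0.0286.

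Prkar1a encodes the type I regulatory subunit RI-alpha, which is mostly soluble and whose loss leaves PKA overactive. Its probe, A_51_P294095, read 2.07, 1.86, 1.97 and 1.92 in WT and 2.15, 1.94, 2.06 and 2.03 in SIRT1 KO hearts. The ranges overlapped, with a log2 fold change of 0.09 (95% interval -0.09 to 0.26, limma adjusted p = 0.553), or 0.053 to 0.13 with each heart left out. Prkar2a encodes the type II regulatory subunit RII-alpha, which A-kinase anchoring proteins tether to membranes and the cytoskeleton. Its brightest probe, A_51_P409893, read -0.07, -0.15, -0.05 and 0.14 in WT and -0.38, -0.31, -0.33 and -0.20 in SIRT1 KO hearts. All 4 SIRT1 KO hearts were below all WT hearts, and the log2 fold change of -0.27 (SE 0.08, 95% interval -0.46 to -0.08), or 0.827-fold, was the one furthest beyond its error among the 18 probes. It did not pass adjustment over all probes (unadjusted limma p = 0.0097, limma adjusted p = 0.105; exact permutation p = 0.0286).

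A second Prkar2a probe, A_52_P367583, gave a difference of similar size in this setting. It read -2.38, -2.75, -2.27 and -2.29 in WT and -2.75, -2.87, -2.75 and -2.48 in SIRT1 KO hearts, a log2 fold change of -0.29 (SE 0.13). Limma gave an unadjusted p of 0.0495, an adjusted p of 0.232, and the exact permutation p was 0.114. With normexp on the median signal it was -0.094 (limma adjusted p = 0.513), where the brightest probe was at -0.19. In the setting used here the ranges of A_52_P367583 overlapped because WT replicate 2 read as low as the SIRT1 KO hearts. These 2 probes followed each other over the 8 hearts (Pearson r = 0.841, permutation p = 0.0113, adjusted p = 0.0383; Spearman rho = 0.714, permutation p = 0.0576, adjusted p = 0.208) and did so with the 2 farthest hearts left out (r = 0.835) and around the genotype means (r = 0.716). The third, A_51_P217295, was dimmer, from -5.18 to -4.49, was not well above background in SIRT1 KO replicate 3, and gave -0.09 (limma adjusted p = 0.780). It was not shown to follow the brightest (r = 0.317, permutation p = 0.445, adjusted p = 0.746; rho = 0.214, permutation p = 0.619, adjusted p = 0.892; r = 0.599 without the 2 farthest hearts). Within a genotype r was 0.79 in WT and -0.22 in SIRT1 KO hearts, so their agreement was not settled. These were bulk hearts, in which fewer cells of a type and less RNA per cell cannot be told apart.

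Ratios of probes within a heart do not depend on how the arrays were scaled by a constant. For the balance of the PKA subunits, the log2 ratio of Prkaca over Prkar2a was 5.38, 5.32, 5.37 and 5.08 in WT and 5.87, 5.71, 5.73 and 5.57 in SIRT1 KO hearts. Only the difference of such ratios between genotypes has a meaning, and it was 0.43 (SE 0.09), or 1.35-fold, with all 4 SIRT1 KO hearts above all WT hearts (exact permutation p = 0.0286, adjusted p = 0.229 over the 16 ratios computed). Prkar1a over Prkar2a read 2.14, 2.004, 2.02 and 1.78 in WT and 2.53, 2.25, 2.39 and 2.23 in SIRT1 KO hearts, also without overlap, a difference of 0.36 (SE 0.10) or 1.29-fold (exact permutation p = 0.0286, adjusted p = 0.229). Prkaca over Prkar1a differed by 0.07 (SE 0.04, exact permutation p = 0.114, adjusted p = 0.305), by 0.039 without SIRT1 KO replicate 2 and by -0.077 with normexp on the median signal, so its direction was not settled. Prkaca alone was wholly higher and Prkar2a alone wholly lower, so Prkaca over Prkar2a had to separate and its p adds no support. Both ratios with Prkar2a use its brightest probe and restate its lower reading. The difference between Prkaca and Prkar1a was smaller. With 4 hearts of each genotype a ratio at the smallest p passes adjustment over the 16 ratios only if most of them reach it. Leaving out each heart in turn kept the Prkaca over Prkar2a difference between 0.36 and 0.48 and that of Prkar1a over Prkar2a between 0.29 and 0.41. With another background correction (normexp on the median spot signal, chosen after seeing the data) the former was 0.26, or smaller by more than 1.5 times. Adrb1 over Adcy6 differed by -0.30 (SE 0.10, exact permutation p = 0.0571, adjusted p = 0.229).

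**Figure D3:**
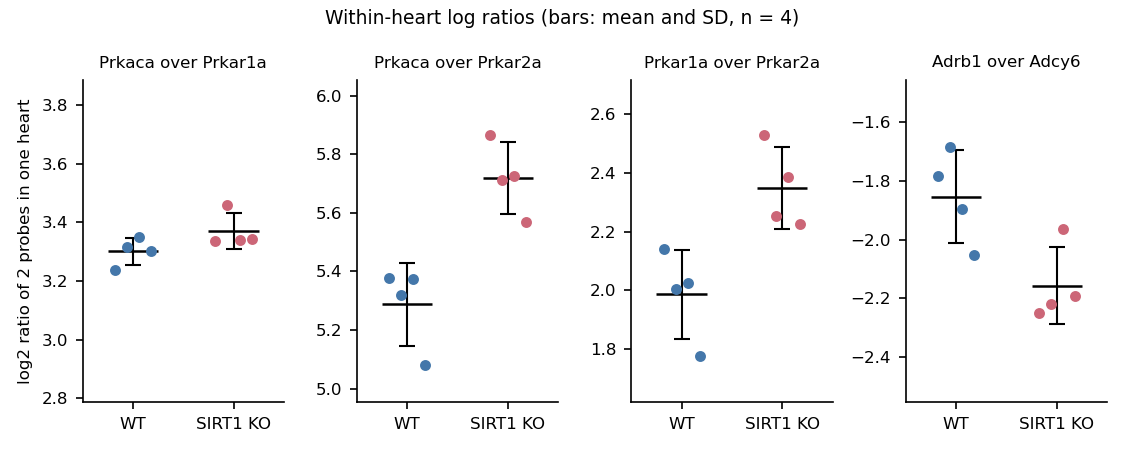
Log2 ratio of a pair of probes within each heart, for 4 WT (blue) and 4 SIRT1 KO (red) hearts, with mean and SD; the panels share a log2 range but not a level. Prkaca over Prkar2a and Prkar1a over Prkar2a are higher in every SIRT1 KO heart than in any WT heart, by 0.43 and 0.36 on average, and the other ratios overlap.

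The scaling between arrays set the sign of many of these differences. Subtracting the median of each array in place of its 75th percentile moved the middle of all log2 fold changes (their median) from 0.0081 to -0.12, and leaving arrays unscaled moved it to -0.21. The member probes moved with it: 10 of 18 were lower in the setting used here, 13 after quantile normalization, 17 with the median and 18 unscaled. The share of called probes that were higher in SIRT1 KO hearts moved likewise, from 81.4% in the setting used here to 63.9% after quantile normalization, 38.1% with the median and 10.04% unscaled. With median scaling, the brighter Adrb1 probe (log2 fold change -0.31, limma adjusted p = 0.0444) and the brightest Prkar2a probe (-0.40, limma adjusted p = 0.0341) passed the threshold. That setting called 1784 of the 25616 probes tested, against 1250 in the setting used here. Relative to the median of all probes, the difference of Adrb1 was -0.19 in the setting used here, -0.15 after quantile normalization and -0.24 with normexp on the median signal. That of Prkar2a was -0.28, -0.26 and -0.25. That of Prkaca was 0.15, 0.20 and 0.019. Prkaca itself read 0.16 in the setting used here, 0.17 after quantile normalization, 0.028 with the median and -0.063 unscaled. The median and unscaled values carry the shift of all probes given above, relative to which Prkaca was at 0.15 in each by construction.

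**Figure D4:**
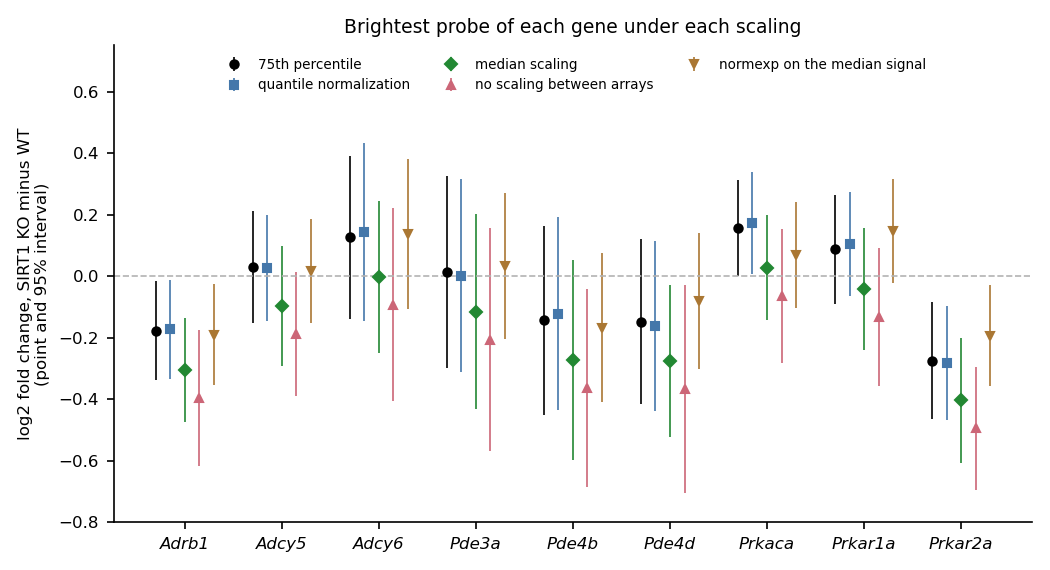
Log2 fold change, SIRT1 KO minus WT, of the brightest probe of each of the 9 genes under 4 scalings and 1 other background correction, with 95% intervals from limma (n = 4 per genotype). Adrb1 (-0.17 to -0.40), Pde4b (-0.12 to -0.36), Pde4d (-0.080 to -0.37) and Prkar2a (-0.19 to -0.49) are below 0 under each; Adcy5, Adcy6, Pde3a, Prkaca and Prkar1a change sign with the scaling.

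The rest of the pathway was read from 10 lists of 129 genes, of which 124 were on the array and 108 were tested on the brightest probe of each gene. By sign 49 were higher and 59 lower in SIRT1 KO hearts, and the median log2 fold change was -0.016, against -0.0069 for all named genes. Limma called 1 of the 108 (0.926%), against 4.58% of the 13594 named genes tested, and 21 (19.4%) had an unadjusted p under 0.05, against 20.4%. The lists overlap the members, which belong to 4 of them. In every list but that of CREB factors no gene was called.

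Upstream of the cyclases, 8 genes of receptors and their desensitization split 4 higher and 4 lower. The gene with the smallest p was Arrb2, for beta-arrestin 2, which uncouples and internalises receptors (log2 fold change 0.32, limma adjusted p = 0.136). Adrb3 had no probe. Of 10 G protein genes 7 were lower, led by the gamma subunit Gng2, which read 3.53, 3.93, 3.71 and 3.72 in WT and 3.20, 3.40, 3.53 and 3.37 in SIRT1 KO hearts. Its ranges nearly touched (-0.35, limma adjusted p = 0.0998). Gnas, which encodes the stimulatory alpha subunit, gave 0.11 (limma adjusted p = 0.521).

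Of the other cyclases, Adcy1 read -0.96 on its brightest probe, well above background on 7 arrays (limma adjusted p = 0.125), and 1.55 on a dimmer probe, well above background on 1 WT and 3 SIRT1 KO arrays (limma adjusted p = 0.0805), so the direction of Adcy1 was not settled. With the replicate number as a block the brightest probe passed (limma adjusted p = 0.0296). With normexp on the median signal it was at -0.30 (limma adjusted p = 0.125). Adcy8 and Pde11a gave the widest points among the lists, -1.43 (SE 0.76, limma adjusted p = 0.311) and 1.39 (SE 0.77, limma adjusted p = 0.331). Both were near background, at 4 and 5 arrays well above it, and were picked out after their values were seen. Among 16 phosphodiesterase genes the smallest p was that of Pde4c, at 0.41 and at a low level in all hearts (limma adjusted p = 0.129), or 0.19 after quantile normalization (limma adjusted p = 0.457).

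Among 10 genes of PKA subunits and inhibitors, 5 were higher and 5 lower, and Prkar2a had the smallest p. The other type II regulatory subunit, Prkar2b, gave 0.071 (SE 0.11, limma adjusted p = 0.743), and the inhibitor peptide gene Pkia -0.29 (limma adjusted p = 0.153); both were looked up after the values were seen. Of 14 A-kinase anchoring proteins, which dock PKA through its regulatory subunits, 8 were higher, with Akap5 at 0.44 (limma adjusted p = 0.118, or 0.0343 with the replicate number as a block). Other receptors of cAMP include the Popeye proteins, and Popdc3 gave -0.25 (limma adjusted p = 0.192), or -0.16 with SIRT1 KO replicate 4 left out. Of 13 proteins that PKA phosphorylates in myocytes, 5 were higher and 8 lower. Ppp1r1b, a phosphatase inhibitor, had the smallest p there (-0.47, limma adjusted p = 0.101). It was -0.61 without WT replicate 2 (limma adjusted p = 0.0221) and -0.36 without WT replicate 1 (limma adjusted p = 0.179). Pln, for phospholamban, gave 0.056 (limma adjusted p = 0.794) and Ryr2, for the calcium release channel, 0.12 (limma adjusted p = 0.560). Cacna1c, for the pore of the L-type calcium channel, gave 0.35 and was higher in all 4 SIRT1 KO hearts than in any WT heart (limma adjusted p = 0.114). These 3 were looked up after the values were seen.

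Crtc3, which encodes a coactivator of CREB that PKA signalling sends to the nucleus, was the called gene. It read -2.71, -2.89, -2.99 and -2.80 in WT and -2.42, -2.42, -2.59 and -2.51 in SIRT1 KO hearts. No heart overlapped the other genotype, and Crtc3 rose by 0.36 on the log2 scale (SE 0.08, limma adjusted p = 0.0411). The call was lost under 12 of 17 alternatives, among them quantile normalization and leaving out any of 6 hearts, and the limma adjusted p ran from 0.0246 to 0.347 over all of them. The difference itself was 0.32 to 0.41 with each heart left out. It was 0.28 after quantile normalization. With median scaling it was 0.24 and unscaled 0.14, values that carry the shift of all probes given above. Leaving out SIRT1 KO replicate 3 raised the count of called pathway genes to 3. Of the 16 genes of CREB factors and cAMP-induced genes 9 were higher. Crtc2, another coactivator of that family, gave 0.26 (limma adjusted p = 0.0695) and Ep300, an acetyltransferase that CREB recruits, 0.34 (limma adjusted p = 0.0907), both chosen after their values were seen. The 9 cAMP-induced genes tested in that list ran from -0.18 (Gem, SE 0.13) to 0.19 (Dusp1, SE 0.08, limma adjusted p = 0.237), with Nr4a1, Fos and Per1 at 0.064, -0.031 and 0.065. Of 6 genes of catecholamine handling 5 were lower. The catecholamine-making enzymes Th, Dbh and Pnmt were too dim to test.

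**Figure D5:**
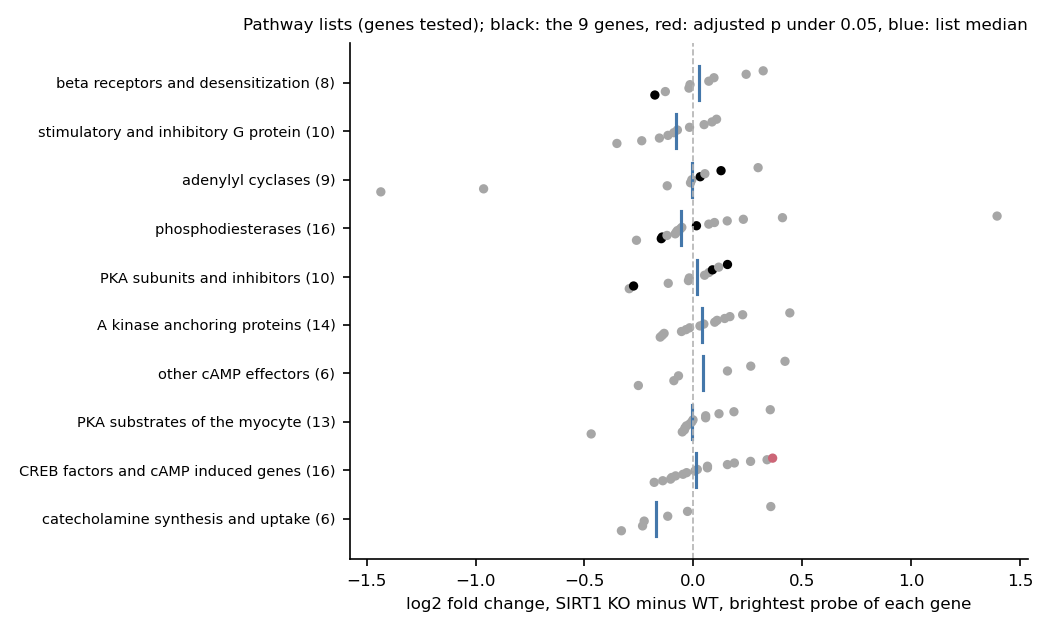
Log2 fold change, SIRT1 KO minus WT, of the brightest probe of each tested gene in the 10 pathway lists, 108 genes in all. Each point is a gene (black, one of the 9 genes; red, Crtc3, the gene called by limma; grey, the others), and the blue bar is the median of the list; the medians lie between -0.17 and 0.044.

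Because CREB acts through the CRE, whose palindrome is TGACGTCA and whose core is TGACG or CGTCA, promoters of the members were searched for these letters on both strands. A RefSeq table for the GRCm38.p6 build, giving for each start 250 bases before it and 50 from it on, held 16 promoters of 7 of the 9 genes. It had no entry for Adcy6 and Pde3a. The palindrome was found in 2 promoters, which were overlapping windows of Prkar1a around 1 site, against 588 of 32851 promoters of all genes (1.79%). That core, the palindrome included, was found in 7 of the 16, belonging to 5 genes, against 20.8% of all promoters. The 2 overlapping Prkar1a windows are among the 7, and a gene with several windows had more chances of a match. No share over genes was computed, so these counts are not a measure of enrichment. The 30 bases around 1 match of each of the 5 genes are shown because they place the letters of the pathway's own response element in its receptor, a phosphodiesterase and the PKA subunits. All are on the + strand, and capitals mark the match.
Prkar1a, chr11:109650889-109650918: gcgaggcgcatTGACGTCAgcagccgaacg
Prkaca, chr8:83972960-83972989: gggctgcgggggCGTCAcggacagaggact
Prkar2a, chr9:108692127-108692156: cgcggccgcgtgCGTCAcaacccgggcgcc
Adrb1, chr19:56722015-56722044: gctgcgggagccTGACGcgcggccccgggg
Pde4b, chr4:102421509-102421538: gatttggctgcaCGTCAattttctcatctg
The genes with a match did not share a direction, with Prkaca and Prkar1a above 0 and Adrb1, Pde4b and Prkar2a below it, none of them past the threshold. A match describes these letters and is not a measured binding site.

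Markers of other cell types were read beside these results. Of 10 markers of neurons and Schwann cells 8 were tested, 7 were higher in SIRT1 KO hearts and limma called 2 (25%, against 4.58% of all named genes tested). Of the 2, Sox10, a transcription factor of Schwann cells, rose by 0.80 (limma adjusted p = 0.0199). The summed level of that list was 1.57 to 1.70 in WT and 1.62 to 1.82 in SIRT1 KO hearts, and the 2 markers not tested were near background. All 6 liver markers tested were higher and none was called, with summed levels of 10.7 to 26.6 in WT and 12.5 to 114 in SIRT1 KO hearts. Alb, for albumin, read 1.37, 0.69, 0.59 and 2.11 in WT and 4.33, 1.54, 0.85 and 3.32 in SIRT1 KO hearts, so SIRT1 KO replicates 1 and 4 were the highest. Their part in the values of the cAMP and PKA genes was not tested. All 6 lung markers were at background.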

How the data were processed

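RNA of each heart (500 ng) was labelled by the one-color Agilent protocol and hybridised to a whole mouse genome array. Per the file headers, the deposited intensity of each spot (gProcessedSignal) was background-subtracted and error-modelled by the authors with Agilent Feature Extraction 12.0.0.7 (version 12 in the submitters' processing notes), with no normalization between arrays. The published methods name an earlier version. The deposited value table holds the same intensities (100% of values equal). Here control spots and spots flagged as outliers were left out, log2 intensities were reduced by the 75th percentile over each array's non-control spots, and spots of a probe were averaged. Accessions were matched to symbols through RefSeq for 28223 probes (68.5%). Probes well above background on at least 4 arrays entered limma 3.58.1 (R 4.3.3; lmFit, eBayes) with genotype as the only term and Benjamini-Hochberg adjustment over all 25616 probes, and calls were made at an adjusted p under 0.05. The code was tested on simulated data with known changes. No spot was saturated, and the number of arrays limits the precision. Nothing in the labels says whether hearts came from separate litters, so p-values measure the spread between these hearts.

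The 9 genes, the gene lists, the ratios and the tests were chosen with earlier results of these data known. Outside the 9 genes, the rule named Sirt1 and, from each pathway list, every gene past the threshold or otherwise that with the smallest p, and genes named beyond it are described as such or are textbook members of the pathway. Single values and ratios were compared by exact two-sided permutation tests over hearts (scipy 1.17.1). The correlations between probes of a gene were added after their values were seen. Alternatives covered scaling, background correction, the filter on dim probes, the test, a replicate block and each heart left out. Of 10 marker lists, those not printed in the report stand among the other observations. A few genes of the pathway and marker lists are not reported here by name.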

Additional observations from a re-analysis of the deposited data

Results flagged for a closer look

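A single heart stood apart from the other hearts of its genotype in 2 of the 72 sets of 4 values examined, where chance alone marks about 1 in 20. Pde3a probe A_52_P421881 read -0.49 in SIRT1 KO replicate 4, against -1.02 to -0.94 in the other SIRT1 KO hearts. The log2 ratio of Prkaca over Prkar1a was 3.46 in SIRT1 KO replicate 2, against 3.337 to 3.343 in the others. Neither value changes a call.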

How the results depend on the processing

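The limits below are those of 4 hearts per genotype on slides that coincide with genotype. Of the 18 member probes, 12 changed sign under at least 1 alternative. Median scaling and no scaling lower all probes alike, so the signs under them are no sign of stability, and the cause of the other changes was not tested.

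No member probe passed the threshold with any heart left out. Median scaling gave 2 and no scaling 4, the latter with A_52_P322181 of Adrb1 at -0.40, A_52_P589745 of Pde4d at -0.44 and the Prkar2a probes A_51_P409893 and A_52_P367583 at -0.49 and -0.51. Over all probes, 1784 passed with median scaling, 6347 unscaled, 546 by the analysis of variance and 2695 with normexp on the median signal, against 1250. With a heart left out 657 to 1825 passed (657 without WT replicate 3, 658 without WT replicate 2, 728 and 726 without SIRT1 KO replicates 1 and 2). Of the pathway genes, 0 passed with quantile normalization or no filter on dim probes, 6 with median scaling, 20 unscaled, 10 with normexp and 0 to 3 with a heart left out. Where limma called 0 of them, an unadjusted p under 0.05 was reached by 23 with quantile normalization and 19 with no filter, against 21.

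Replicate numbers are shared by the genotypes, but same-numbered hearts correlated at 0.204, 0.207, 0.056 and 0.141 around the genotype means, so not every pair passed 0.1 and the numbers were not taken to pair the hearts. Every heart correlated best with its own number, a hint from the data and not the design. With the replicate block 1185 probes, 0 member probes and 2 pathway genes passed. These were Adcy1 (limma adjusted p = 0.0296) and Akap5 (0.0343), while Crtc3 did not (0.0513).

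With no scaling, the sign reversed for Adrb1 A_51_P203827 (-0.11), Adcy5 A_51_P199041 (-0.19), Adcy6 (-0.093), Pde3a A_52_P421881 (-0.21), Pde4b A_52_P149801 (-0.11), Pde4d A_52_P582018 (-0.19), Prkaca (-0.063) and Prkar1a (-0.13). With median scaling it reversed for the same probes but that of Prkaca, at -0.020, -0.097, -0.0017, -0.11, -0.015, -0.10 and -0.041. With quantile normalization it reversed for Adrb1 A_51_P203827 (-0.033), Pde4b A_52_P149801 (-0.099) and Pde4d A_52_P582018 (-0.11). With normexp, added after seeing the data, it reversed for Pde4d A_52_P589745 (0.13) and Prkar2a A_51_P217295 (0.078), and the ratios Prkaca over Prkar1a and Prkaca over Prkar2a moved to -0.077 and 0.26. Leaving out each heart in turn gave -0.0069 to 0.19 for Adrb1 A_51_P203827, -0.030 to 0.063 for Adcy5 A_51_P199041, -0.078 to 0.016 for Adcy5 A_52_P449208, -0.11 to 0.096 for Pde3a A_52_P421881, -0.17 to 0.034 for Pde4b A_52_P423247, -0.085 to 0.11 for Pde4d A_52_P582018 and -0.19 to 0.040 for Prkar2a A_51_P217295. Normexp on the mean signal, as first planned, was not run because the arrays were read here without that column.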

Other observations

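Other cell types were read from their marker lists as counts, with no test of the list. Limma called no gene of these lists. All 8 macrophage markers were tested (5 higher, 3 lower, median log2 fold change 0.069) and all 8 endothelial markers (1 higher, 7 lower, -0.12). Of 9 markers of fibroblasts and the epicardium 3 were higher (median -0.028), and of 7 smooth muscle markers 1 was higher (-0.13). Erythroid markers, read on 5 of 8 genes, had a median of -0.19 and a summed level of 509 to 557 in WT and 440 to 537 in SIRT1 KO hearts. Of the thymus list 2 of 8 genes were bright enough to test, 1 higher and 1 lower. The endothelial list summed to 68.3 to 74.0 in WT and 64.1 to 74.1 in SIRT1 KO hearts. The part of these cells in the values of the cAMP and PKA genes was not tested.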
